A study of Mus musculus with 4 samples.

Results

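The genes described here are 36 cell cycle genes of the mouse, measured by RNA-seq in jejunal epithelium. They were chosen by symbol and role, and the rule uses none of their values, but earlier results of these data were known. All 36 were found among the 22458 symbols of the deposited expression table, and all 36 passed the filter on low values that left 10883 genes for testing. Foxm1 stands in a row joined with the overlapping locus 4933413G19Rik, so its level is that of both. By role, 14 members act at the G1/S boundary or in DNA replication, 20 act in G2 and mitosis, and Ccnd1 and Myc act at entry into G1.

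The cell cycle runs in a fixed order. Cyclin D and Myc push a cell into the cycle, E2F transcription factors then switch on the genes of DNA replication, and a later program led by Foxm1 and the MYB-MuvB complex switches on the genes of mitosis. In the intestine the dividing cells sit in the crypts, where stem cells and transit-amplifying cells divide, and the cells on the villus have left the cycle.

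There were 4 libraries of adult jejunal epithelium, 2 from mice labelled Hnf4a;Cdx2 double knockout and 2 from controls without Cre, all of a mixed 129xC57/Bl6xSvJ background. Every mouse, controls included, had received 1 mg of tamoxifen on 5 days, the drug that switches on an inducible Cre. The sources used here name neither the promoter that drives Cre nor the exons removed. The epithelium was released with EDTA, and markers of villus and of crypt cells were both present. In the check of the labels Hnf4a was at 31.6 and 48.2 FPKM in the labelled double knockouts, against 156 and 202 in controls (FPKM, a read level scaled to transcript length and library size). Cdx2 was at 159.8 and 161 FPKM in the labelled double knockouts, against 70.9 and 65.2 in controls, which goes against the label. A level over the whole gene cannot check a deletion of some exons, so each direction below rests on the labels. All 5 epithelial markers were present, but they moved apart. Epcam fell to 526 and 531 FPKM in the labelled double knockouts, against 1135 and 1281 in controls (limma, adjusted p = 0.0300). Vil1 fell to 508 and 487 FPKM in the labelled double knockouts, against 970 and 1024 in controls (limma, adjusted p = 0.0411). Krt8, Krt18 and Cdh1 were not called. Krt8 was the largest part of the sum of the 5 in each library. That sum was 4760 and 5190 FPKM in the labelled double knockouts and 4440 and 5610 in controls.

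Promoters of the members hold letters linked to the 2 programs, and 4 are shown, 2 of each role, because they hold the E2F letters of replication genes or the CHR letters of mitosis genes. RefSeq promoter windows, 250 bases before to 50 after the start of a gene (GRCm38.p6), were at hand for 28 members. The E2F letters searched were TTTCCCGC, TTTCGCGC, TTTGGCGC and TTTGCCGC, the CHR letters (cell cycle genes homology region, bound by the MuvB complex) were TTTGAA, and the other motif was CCAAT, the site of NF-Y, each on both strands. The 200 bases before the start of Mcm5 (chr8:75109309-75109508, plus strand), Mcm6 (chr1:128359706-128359905, minus strand), Cdk1 (chr10:69352913-69353112, minus strand) and Kif11 (chr19:37376182-37376381, plus strand) follow, 5′ to 3′ along the gene, with the matched letters of the 3 motifs, or their reverse complements, in capitals.
Mcm5: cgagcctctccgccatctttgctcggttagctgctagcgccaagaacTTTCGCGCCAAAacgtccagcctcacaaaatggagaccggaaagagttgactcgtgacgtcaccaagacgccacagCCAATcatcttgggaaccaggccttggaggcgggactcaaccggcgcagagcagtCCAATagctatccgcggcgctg
Mcm6: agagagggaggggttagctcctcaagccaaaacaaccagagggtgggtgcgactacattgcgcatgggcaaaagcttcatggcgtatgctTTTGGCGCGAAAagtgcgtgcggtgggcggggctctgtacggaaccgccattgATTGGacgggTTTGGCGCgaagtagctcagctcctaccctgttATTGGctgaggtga
Cdk1: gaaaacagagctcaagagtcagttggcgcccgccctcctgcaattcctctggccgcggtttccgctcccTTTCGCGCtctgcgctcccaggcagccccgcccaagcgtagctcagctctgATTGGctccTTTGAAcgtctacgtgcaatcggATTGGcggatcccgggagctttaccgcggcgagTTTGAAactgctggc
Kif11: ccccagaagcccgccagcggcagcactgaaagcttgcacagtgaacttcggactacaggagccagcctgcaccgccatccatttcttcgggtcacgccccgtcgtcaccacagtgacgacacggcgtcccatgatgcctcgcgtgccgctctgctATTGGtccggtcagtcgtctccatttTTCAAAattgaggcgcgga
In Mcm5 a pair of overlapping E2F matches begins 153 and 149 bases before the start, and in Mcm6 another such pair begins at 110 and 106 bases with another match at 47. Cdk1 holds TTTGAA at 71 and 15 bases before its start and an E2F match at 131, and Kif11 holds the reverse form TTCAAA at 19.

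The 14 promoters of G1/S members came from 13 genes, since Mcm7 had 2 and Mcm4 had none. E2F letters stood in 5 of 14 promoters of G1/S members (35.7%) and in 1 of 15 of G2/M members (6.67%). Over all 32851 promoters of that length the share was 2.26%. CHR letters showed the opposite split, with 2 of 14 in G1/S members (14.3%) and 12 of 15 in G2/M members (80.0%), against 17.9% of all promoters. CCAAT was common in both roles, in 10 of 14 and 14 of 15 promoters (71.4% and 93.3%), against 37.4% of all. A match describes letters in this window and does not show that a factor binds there.

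**Figure D1:**
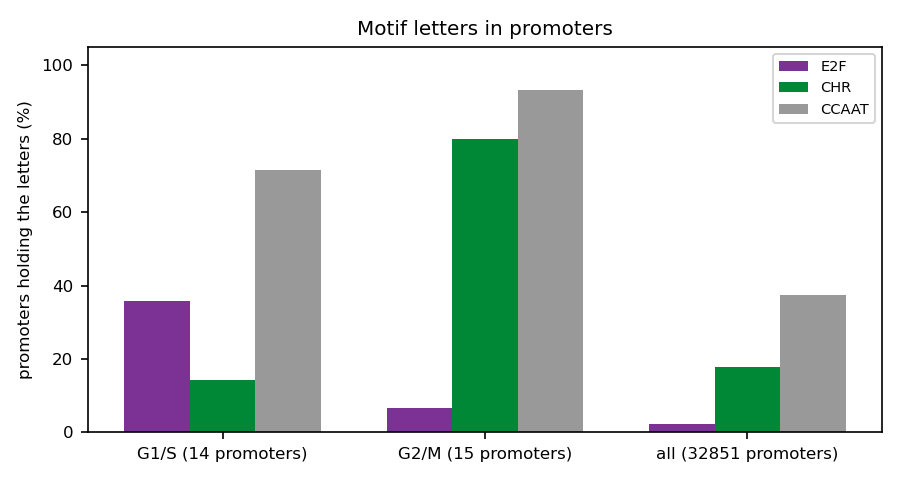
Percent of promoters (vertical axis) that hold E2F, CHR or CCAAT letters, in G1/S members (14 promoters), G2/M members (15 promoters) and all genes (32851 promoters). CHR letters are in 80.0% of G2/M promoters, and E2F letters are most frequent in G1/S promoters, at 35.7%.

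The main pattern of the members was a gap between the control mice, and no difference between the genotypes passed the test. Control 2 was the lowest of the 4 libraries in 33 of 36 members, against 29.5% of all genes tested. Labelled double knockout 2 was the highest in 23 of 36, against 25.1% of all genes. In a whole epithelium fewer dividing cells and less RNA of these genes per cell cannot be told apart. Pcna, Tyms, Ccnb1 and Ccnb2 have annotated pseudogenes named after them that could share their reads, so the levels of these 4 are uncertain. Pseudogenes under other names were not searched for, so other members may have some as well.

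**Figure D2:**
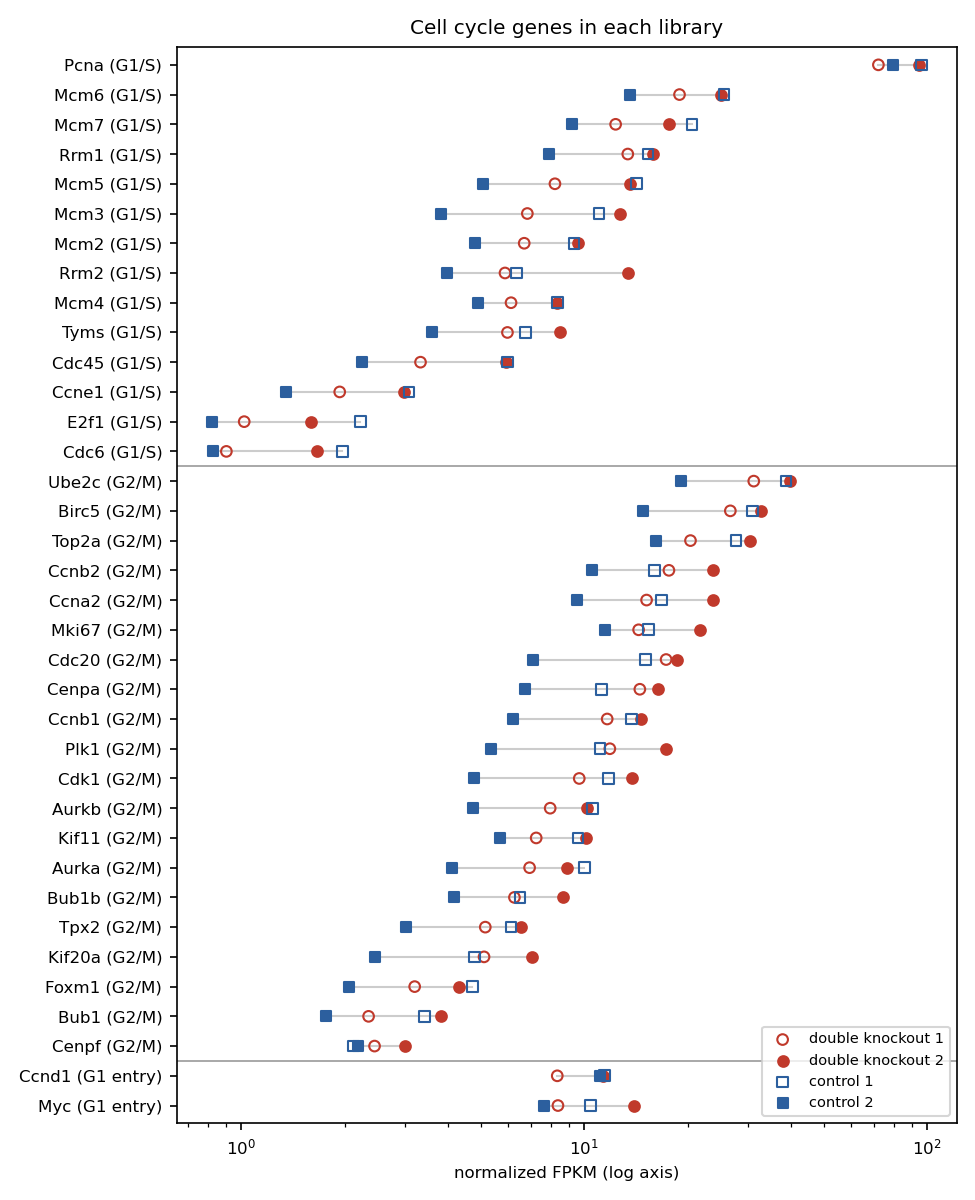
Normalized FPKM (log axis) of the 36 members in each library, grouped by role and ordered by mean level; circles are labelled double knockouts, squares are controls, filled marks are replicate 2. Control 2 lies at the left end of 33 of the 36 lines.

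Among replication genes, the Mcm2 to Mcm7 proteins form the ring-shaped helicase that opens the DNA. Mcm3 (chromosome 1, 20793095 to 20810294, mm9) had 6.82 and 12.7 FPKM in the labelled double knockouts, against 11.05 and 3.82 in controls. Mcm5 (chromosome 8, 77633427 to 77652338) had 8.21 and 13.6 FPKM in the labelled double knockouts, against 14.2 and 5.05 in controls. The groups overlapped in both genes, and in Mcm5 the controls enclosed both labelled double knockouts. Mcm6, the most abundant of the ring, had 18.9 and 25.1 FPKM in the labelled double knockouts, against 25.6 and 13.6 in controls. Mcm7 had 12.3 and 17.6 FPKM in the labelled double knockouts, against 20.6 and 9.18 in controls. Mcm2 and Mcm4 lay between 4.79 and 9.60 FPKM in all libraries, again with control 2 lowest. In all 6 genes control 2 was the lowest and labelled double knockout 1 the next, and the groups overlapped.

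Cdc6 loads the helicase, Cdc45 activates it, and Ccne1 is the cyclin that drives the G1/S step. Cdc6 had 0.904 and 1.66 FPKM in the labelled double knockouts, against 1.97 and 0.829 in controls. Cdc45 had 3.33 and 5.93 FPKM in the labelled double knockouts, against 5.97 and 2.25 in controls. Ccne1 had 1.94 and 2.98 FPKM in the labelled double knockouts, against 3.08 and 1.35 in controls. For each of these the controls lay outside both labelled double knockouts. E2f1, the transcription factor of this step, had 1.02 and 1.60 FPKM in the labelled double knockouts, against 2.22 and 0.823 in controls, in the same order.

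Pcna, the sliding clamp of the replication fork, had the highest level per length of the members. It had 72.0 and 94.6 FPKM in the labelled double knockouts, against 96.3 and 79.3 in controls, and was the single G1/S member in which control 2 was not the lowest. Its spread was narrow beside the helicase, with control 1 at 1.21 times control 2. The nucleotide-making enzymes followed the helicase. Rrm1, the large subunit of ribonucleotide reductase, had 13.4 and 15.9 FPKM in the labelled double knockouts, against 15.3 and 7.91 in controls. Its partner Rrm2 (chromosome 12, 25393119 to 25399011) had 5.87 and 13.4 FPKM in the labelled double knockouts, against 6.33 and 3.99 in controls. In Rrm2 the labelled double knockouts stood further apart (2.28-fold) than the controls (1.59-fold), with labelled double knockout 2 the high library. Tyms, thymidylate synthase, had 5.97 and 8.52 FPKM in the labelled double knockouts, against 6.73 and 3.58 in controls.

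Among mitosis genes, Cdk1 is the kinase that starts mitosis and Ccnb1, Ccnb2 and Ccna2 are its cyclins. Cdk1 (chromosome 10, 68799383 to 68815660) had 9.67 and 13.8 FPKM in the labelled double knockouts, against 11.8 and 4.77 in controls. Ccnb1 had 11.7 and 14.6 FPKM in the labelled double knockouts, against 13.7 and 6.21 in controls. In both, control 1 lay between the labelled double knockouts. Ccnb2 had 17.7 and 23.7 FPKM in the labelled double knockouts, against 16.0 and 10.5 in controls, so that the groups did not overlap. Ccna2 had 15.2 and 23.7 FPKM in the labelled double knockouts, against 16.8 and 9.50 in controls. Foxm1, which drives transcription of mitosis genes, had 3.201 and 4.30 FPKM in the labelled double knockouts, against 4.71 and 2.06 in controls, with the locus it overlaps included.

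Of the mitotic kinases, Plk1 (chromosome 7, 129302951 to 129313389), which acts at centrosomes and kinetochores, had 11.9 and 17.2 FPKM in the labelled double knockouts, against 11.1 and 5.34 in controls, without overlap. Aurka, the spindle pole kinase, had 6.92 and 8.91 FPKM in the labelled double knockouts, against 10.01 and 4.11 in controls, with both labelled double knockouts between the controls. Aurkb, of the chromosomal passenger complex, had 7.95 and 10.2 FPKM in the labelled double knockouts, against 10.6 and 4.74 in controls, also enclosed. Birc5 (survivin), a partner of Aurkb in that complex, had 26.7 and 32.8 FPKM in the labelled double knockouts, against 30.9 and 14.8 in controls. The checkpoint kinase Bub1 had 2.35 and 3.81 FPKM in the labelled double knockouts, against 3.42 and 1.77 in controls. Its relative Bub1b had 6.25 and 8.66 FPKM in the labelled double knockouts, against 6.496 and 4.17 in controls.

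Cdc20 activates, and Ube2c serves, the ubiquitin ligase that ends mitosis. Cdc20 had 17.3 and 18.7 FPKM in the labelled double knockouts, against 15.1 and 7.08 in controls, without overlap. Ube2c, the most abundant G2/M member, had 31.2 and 39.9 FPKM in the labelled double knockouts, against 38.7 and 19.2 in controls, with overlap. At the centromere, Cenpa is the histone variant that marks the site. It (chromosome 5, 30969275 to 30977199) had 14.5 and 16.4 FPKM in the labelled double knockouts, against 11.2 and 6.71 in controls, without overlap. Cenpf, a large kinetochore protein, had 2.45 and 2.999 FPKM in the labelled double knockouts, against 2.12 and 2.19 in controls, and was the single member with control 2 above control 1.

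The spindle motor Kif11 had 7.24 and 10.1 FPKM in the labelled double knockouts, against 9.59 and 5.69 in controls. Kif20a, a motor of cytokinesis, had 5.10 and 7.05 FPKM in the labelled double knockouts, against 4.79 and 2.45 in controls, without overlap. Tpx2, which activates Aurka on the spindle, had 5.14 and 6.54 FPKM in the labelled double knockouts, against 6.12 and 3.02 in controls. Among the 3, Kif20a alone had both labelled double knockouts above both controls. Top2a, which untangles chromosomes, had 20.4 and 30.4 FPKM in the labelled double knockouts, against 27.7 and 16.2 in controls. Mki67, the proliferation marker that coats mitotic chromosomes, had 14.4 and 21.7 FPKM in the labelled double knockouts, against 15.4 and 11.5 in controls. Its gap between controls, 1.34-fold, was under 1.5-fold, as was that of Cenpf, and the other 18 members of the role were above.

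At entry into G1, Ccnd1 (chromosome 7, 152115836 to 152125830), which encodes cyclin D1, had 8.34 and 11.4 FPKM in the labelled double knockouts, against 11.4 and 11.1 in controls. Its controls differed by 1.03-fold, and labelled double knockout 1 was the low library. Myc had 8.38 and 13.9 FPKM in the labelled double knockouts, against 10.4 and 7.64 in controls.

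The genotype was tested with limma on log2(FPKM + 1), with Benjamini-Hochberg adjustment over all 10883 genes, a scale on which the change of low genes is understated. Limma called 0 of 36 members at an adjusted p under 0.05, against 9.57% of all genes tested (410 higher and 631 lower, or 482 and 451 with FPKM estimated for each library alone). At an unadjusted p under 0.05 (limma) there was 1 of 36 members, against 3079 of the 10883 genes tested. That member was Cenpa. Its log2 difference was 0.76 ± 0.26 (SE, limma, adjusted p = 0.140), with means of 15.4 ± 1.31 FPKM in the labelled double knockouts and 8.98 ± 3.2 in controls (SD, n = 2 each). Plk1 had the highest difference, 0.81 ± 0.37 (SE, limma, adjusted p = 0.230), and Ccnd1 the lowest, -0.19 ± 0.19 (SE, limma, adjusted p = 0.562). Differences were above 0 in 32 of 36 members, 11 of 14 G1/S and 20 of 20 G2/M members, at a median of 0.28 against 0.02 over all genes tested. With quantile normalization 12 of 14 G1/S members were above 0, and with FPKM of each library alone 13 of 14. Both labelled double knockouts lay above both controls in 6 members, all of G2/M (Ccnb2, Plk1, Cdc20, Kif20a, Cenpa and Cenpf), against 31.2% of all genes. Both lay below both controls in 0 members, against 29.5% of all genes. The authors' deposited table calls 0 of 36 members, against 13.2% of all rows tested there, and gives 3 an unadjusted p under 0.05. The lowest q in the authors' deposited table was that of Rrm2 (0.107), followed by Plk1 (0.168) and Cenpa (0.182).

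The sign of the difference depended on which control was used. Without control 2 the median over the members was -0.13, and 12 of 36 differences were above 0 (2 of 14 G1/S and 9 of 20 G2/M members). Without control 1 the median was 0.76, and 35 of 36 differences were above 0. Mcm3 stood at -0.22 without control 2 and at 1.10 without control 1, and Cdk1 at -0.03 and 1.12. Cenpa stayed above 0 on each side, at 0.42 and 1.09. Labelled double knockout 2 mattered as well, since the median was 0.09 without it and 22 of 36 differences were above 0.

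**Figure D3:**
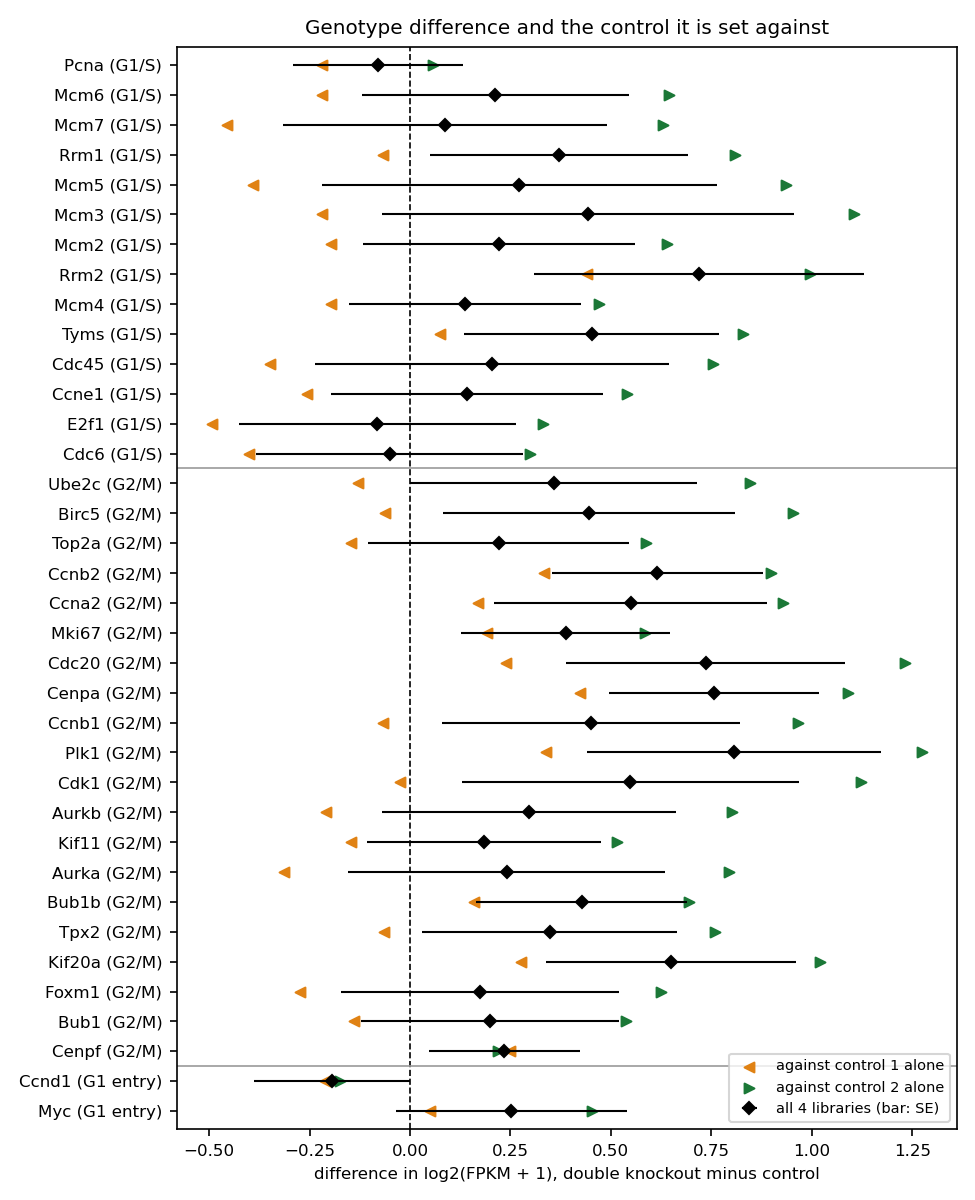
Difference in log2(FPKM + 1), labelled double knockout minus control (horizontal axis), for each member with all 4 libraries (diamond, bar is the SE), against control 1 alone (left triangle) and against control 2 alone (right triangle). The median moves between -0.13 against control 1 and 0.76 against control 2.

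The spread between replicates was larger than the genotype difference for most members. The gap between the controls exceeded the genotype difference in 31 of 36 members, against 39.3% of all genes tested. Control 1 was at least 1.5 times control 2 in 31 of 36 members, against 10.3% of all genes, with a median ratio of 1.95 over the members and 1.00 over all genes. Labelled double knockout 2 was above labelled double knockout 1 in 36 of 36 members and at least 1.5 times as high in 11, against 8.12% of all genes, with a median ratio of 1.39 against 0.982. Control 1 stood over control 2 in G1/S and in G2/M members alike, at median ratios of 2.097 and 1.98.

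Counting error was smaller than these gaps for most members whose reads could be recovered. Low values in the deposited table moved in steps of whole reads: 88.2% to 90.1% of values under 0.15 FPKM stood to control 1 in a ratio of whole numbers up to 10, within 0.1%, after scaling. A read was worth 1.53 and 2.01 times as much in labelled double knockouts 1 and 2, and 1.46 times as much in control 2, as in control 1, which was therefore the most deeply read library. The values of 24 of 36 members in the 4 libraries came out as whole reads within 0.005, from 33 to 2832 reads per library; a true number could be a multiple of the one found. Mcm3 had 243 and 346 reads in the labelled double knockouts and 604 and 143 in controls. Its ratio of control 1 to control 2 was 2.89, with a 95% interval of 2.41 to 3.5 (exact binomial, counting error only). The interval lay above 1 in 22 of the 24 members between the controls, and the exceptions were Cenpf (0.842 to 1.12) and Ccnd1 (0.922 to 1.15). It lay above 1 in 22 of 24 between the labelled double knockouts as well, except for Cdc20 (0.921 to 1.26) and Cenpa (0.923 to 1.38). PCR copies are not independent molecules, so these intervals cover counting error only.

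**Figure D4:**
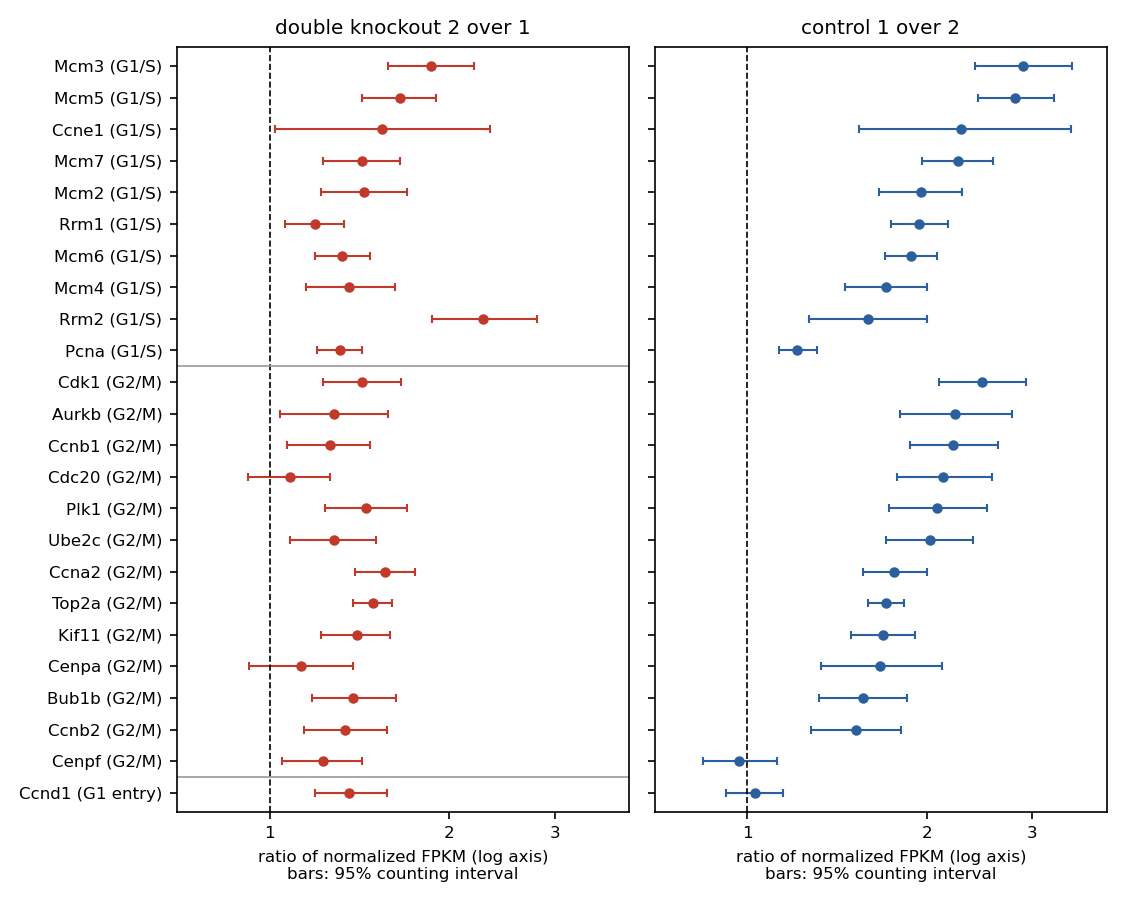
Ratio of normalized FPKM (log axis) between the labelled double knockout libraries (left) and between the control libraries (right) for the 24 members with whole reads; bars are 95% counting intervals. The interval lies above 1 for 22 of 24 members in each panel.

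Replication and mitosis genes were then set against each other within each library, which removes a shift that all members share. The mean log2 level of the 14 G1/S members minus that of the 20 G2/M members was -0.46 and -0.32 in the labelled double knockouts, against -0.14 and -0.22 in controls. Both labelled double knockouts lay below both controls, by a mean of -0.21, and the spread between replicates of this measure was 0.0808 (pooled SD). No p is given for this balance; an exact permutation of 2 libraries against 2 cannot give one under 0.333. Leaving out any 1 library kept the difference between -0.29 and -0.14, and every scaling and pseudocount tried between -0.23 and -0.21. Summed FPKM of G1/S over G2/M members was 0.690 and 0.734 in the labelled double knockouts, against 0.853 and 0.995 in controls. Here control 1 and not control 2 was the lower control. Pcna, whose level is uncertain, was the largest part of the G1/S sum in each library. It made 72.0 of 164 and 94.6 of 231 FPKM in the labelled double knockouts, and 96.3 of 227 and 79.3 of 141 in controls. The summed ratio therefore rests largely on Pcna, and it was not computed without that gene.

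**Figure D5:**
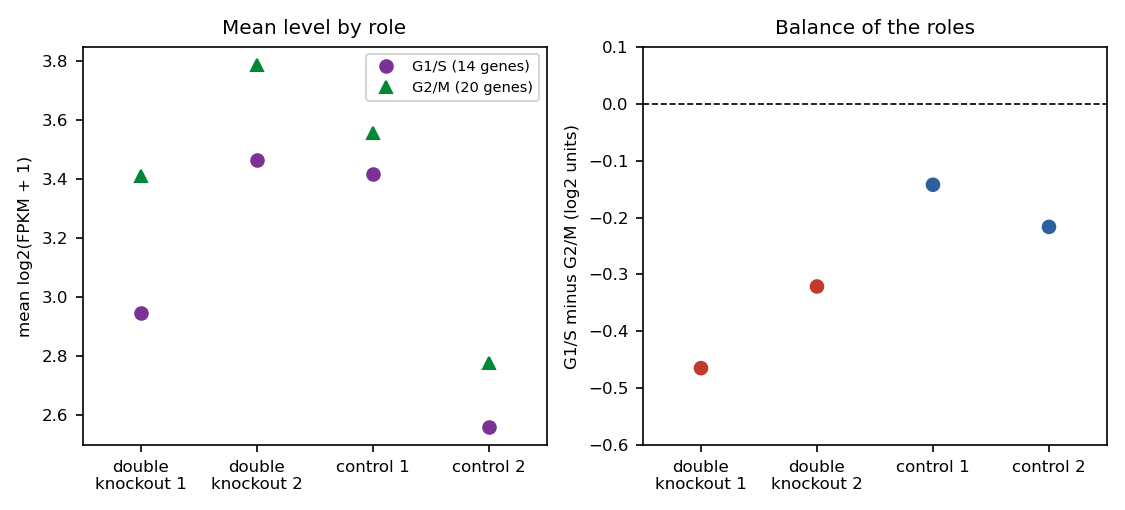
Left, mean log2(FPKM + 1) of G1/S members (circles) and G2/M members (triangles) per library. Right, the G1/S mean minus the G2/M mean per library; the labelled double knockouts sit at -0.46 and -0.32 and the controls at -0.14 and -0.22.

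Other genes of the same steps, taken from lists made by role, were compared in the same way. For 47 further replication genes and 58 further mitosis genes the difference in mean log2 level was 0.30 and 0.29 in the labelled double knockouts, against 0.54 and 0.51 in controls, again with both labelled double knockouts below both controls. Control 2 was the lowest library in 36 of the 47 replication genes and in 53 of the 58 mitosis genes. Limma called 0 of the 58 mitosis genes, against 9.57% of all genes tested. An unadjusted p under 0.05 was found in 2 of the 58, against 3079 of the 10883 genes tested. The most abundant further mitosis genes were Cks2, a Cdk1 subunit, at 31.7 and 44.7 FPKM in the labelled double knockouts against 34.8 and 28.4 in controls, and Bub3, a checkpoint protein, at 24.6 and 24.5 FPKM in the labelled double knockouts against 24.8 and 23.4 in controls. Neither was called (limma, adjusted p = 0.515 and 0.924).

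Regulators of G1 were taken next. Of 21 tested cyclins, kinases, E2F and pocket protein genes, 1 was called higher and 3 lower, beside 9.57% called over all genes tested, and control 1 was at least 1.5 times control 2 in 4. E2f2, an activating E2F, rose to 17.2 and 16.0 FPKM in the labelled double knockouts, against 6.37 and 5.00 in controls (log2 difference 1.40 ± 0.18, SE, limma, adjusted p = 0.0150). E2f5, a repressive E2F, fell to 4.44 and 4.02 FPKM in the labelled double knockouts, against 11.3 and 11.6 in controls (limma, adjusted p = 0.0147). Tfdp2, an E2F dimer partner, fell to 5.65 and 4.93 FPKM in the labelled double knockouts, against 11.04 and 13.4 in controls (limma, adjusted p = 0.0293). Leaving out any 1 library ended these calls (limma, adjusted p = 0.0546 to 0.135). The other gene called lower, named after its value was seen, was Max, the partner of Myc, at 62.9 and 61.9 FPKM in the labelled double knockouts, against 107 and 109 in controls (limma, adjusted p = 0.0407).

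Of 17 tested cell cycle inhibitors and p53 targets, 2 were called lower and 0 higher, which is near the 9.57% called over all genes tested. Sesn1, a stress-induced p53 target, fell to 14.3 and 7.13 FPKM in the labelled double knockouts, against 54.6 and 38.5 in controls (log2 difference -2.07 ± 0.36, SE, limma, adjusted p = 0.0326). Btg2, an antiproliferative p53 target, fell to 14.4 and 16.8 FPKM in the labelled double knockouts, against 34.7 and 41.9 in controls (limma, adjusted p = 0.0199). Sesn1 kept its call without labelled double knockout 1 (limma, adjusted p = 0.0249) and lost it without any other library (0.0665 to 0.125), and Btg2 lost it in each of the 4 cases (0.0614 to 0.0967). Cdkn1a, which encodes p21, was chosen after its value was seen and stood at 150.6 and 116 FPKM in the labelled double knockouts, against 118 and 140.0 in controls (limma, adjusted p = 0.920).

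Crypt base stem cell markers were, like most members, lowest in control 2. The 5 crypt base stem cell markers (Lgr5, Ascl2, Olfm4, Smoc2 and Axin2) summed to 364 and 374 FPKM in the labelled double knockouts, against 373 and 151 in controls, and control 1 exceeded control 2 in 5 of 5. Most of that sum was Olfm4, at 336 and 346 FPKM in the labelled double knockouts, against 337 and 135 in controls. Over the 12 tested genes of the crypt stem cell list, which holds these 5, control 2 was the lowest library in only 6, against 29.5% of all genes tested. Control 1 exceeded control 2 in 9 of the 12, and Sox9, Cd44 and Prom1 went the other way. Of the 12, 1 was called, near the 9.57% called over all genes. It was Prom1, which rose to 80.3 and 52.2 FPKM in the labelled double knockouts, against 26.5 and 27.3 in controls (log2 difference 1.24 ± 0.24, SE, limma, adjusted p = 0.0439). Prom1 kept its call without labelled double knockout 2 (limma, adjusted p = 0.0352) and lost it without any other library (0.0852 to 0.164). The 10 enterocyte markers summed to 50200 and 33700 FPKM in the labelled double knockouts, against 43600 and 47200 in controls, a sum carried by Fabp1, Fabp2, Apoa1 and Apoa4. Of the 10, limma called 3 lower and 0 higher, beside 9.57% called over all genes tested. Fabp2, Apoa4 and Alpi had differences above 0 and were not called. Lct, the enzyme lactase, fell to 2.70 and 0.743 FPKM in the labelled double knockouts, against 300.0 and 283 in controls (limma, adjusted p = 0.0023). Sis, sucrase-isomaltase, fell to 57.1 and 25.7 FPKM in the labelled double knockouts, against 462 and 1554 in controls (limma, adjusted p = 0.0236). The other was Vil1, villin of the brush border, and all 3 are named here after their values were seen.

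Other cell types were measured beside these values. The 11 lymphocyte and myeloid markers summed to 15.1 and 27.3 FPKM in the labelled double knockouts, against 25.7 and 60.9 in controls, with 4 of 11 higher in control 1 than in control 2. The 11 markers of stroma, endothelium and muscle summed to 4.07 and 5.43 FPKM in the labelled double knockouts, against 6.38 and 7.41 in controls, and 4 of them were under 0.1 FPKM in every library. The 4 tuft cell markers summed to 58.9 and 49.7 FPKM in the labelled double knockouts, against 17.5 and 74.4 in controls. These 3 sums were highest in control 2, the library in which most members were lowest, and 34.8 FPKM of its lymphocyte and myeloid sum was the myeloid marker Lyz2. Of the 6 lymphocyte and myeloid markers tested, the T cell markers Cd3e, Cd3g and Cd8a were highest in labelled double knockout 2. Most members were also highest in that library. Ptprc, Itgam and Lyz2 were highest in control 2. The T cell markers were not called (limma, adjusted p = 0.696, 0.601 and 0.956). Cd3g had 4.52 and 8.57 FPKM in the labelled double knockouts, against 5.17 and 4.91 in controls. The 4 Paneth cell markers summed to 27500 and 60600 FPKM in the labelled double knockouts, against 42100 and 37600 in controls. Most of each sum was Defa24, at 25477 and 57893 FPKM in the labelled double knockouts, against 32235 and 30780 in controls. The 4 moved apart, with log2 differences of 0.29 for Defa24, 1.11 for Mmp7, -1.48 for Lyz1 and -3.51 for Ang4. Limma called 0 of them, beside 9.57% called over all genes tested. Goblet cell markers summed to 8480 and 6770 FPKM in the labelled double knockouts, against 8170 and 7410 in controls. Enteroendocrine markers summed to 84.5 and 64.0 FPKM in the labelled double knockouts, against 277 and 235 in controls. Markers of plasma cells and activated lymphocytes summed to 186 and 139 FPKM in the labelled double knockouts, against 127 and 136 in controls. Most of each sum was Xbp1, which secretory epithelium also expresses. Xbp1 had 172 and 90.7 FPKM in the labelled double knockouts, against 110 and 119 in controls. Gzmb, granzyme B of activated lymphocytes, had 11.6 and 44.1 FPKM in the labelled double knockouts, against 15.01 and 15.98 in controls, and was highest in labelled double knockout 2 (limma, adjusted p = 0.607). The part of crypt content and of these cell types in the members' levels was not tested.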

How the data were processed

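Per the labels' protocols, jejunal epithelium was released by EDTA and TruSeq libraries were sequenced from 1 end over 75 bases. The tools that the submitters' processing notes list, without roles, are Cuffnorm, Cuffdiff, Cufflinks (version 2.1.1) and TopHat2 (version 2.0.9), with build mm9; strand use is not given in the sources used here. The authors' main deposited table (23735 rows, a column for each library) names no unit and was taken as FPKM normalized between libraries; other deposited files give FPKM of each library alone, per the file headers. Their deposited comparison gives group FPKM, p-values and q-values.

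Groups and replicate numbers came from the titles. Rows of 1 symbol were summed (147 symbols), 1034 short RNA symbols were left out, and genes whose mean reached 1 FPKM were tested with limma (version 3.58.1, R version 4.3.3) on log2(FPKM + 1) with an intensity trend, two-sided, adjusted by Benjamini-Hochberg over 10883 genes. The procedure was tested on simulated data with changes larger than that of any member and with the median spread of all genes. It therefore cannot tell whether differences of the members' size would be called. Library sums were 643708 to 689276 FPKM; absolute depth is not known, and relative depth came from low values. The titles call the replicates biological, without naming the animals. All members were named; from each other list the 2 called genes with the largest change per direction, or the 2 most abundant. A result among the further replication genes is not reported here. Members and lists were chosen with earlier results of these data known. Alternatives changed the pseudocount, filter, scaling, FPKM source, variance model and pairing and left out each library. Ccnb1, Ccnb2, Pcna and Tyms have annotated pseudogenes (GENCODE M21) that could share reads. Only pseudogenes named after a member were searched for.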

Additional observations from a re-analysis of the deposited data

How the results depend on the processing

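Limma called 0 members under every alternative run, and the G1/S minus G2/M balance stayed below 0 in the pseudocounts, scalings and left-out libraries for which it was computed. Over all genes, the counts called higher and lower were 410 and 631, 268 higher with no filter, and 65 to 301 higher and 86 to 384 lower with 1 library left out. Lists changed in count as follows: cell cycle inhibitors and p53 targets 2, with 1 under no filter and 0 to 1 with a library left out; crypt stem cell genes 1, with 0 under no filter and 0 to 1 with a library left out; G1 regulators 4, with 2 under FPKM of each library alone and 0 to 1 with a library left out; further replication genes 1, with 0 with any library left out.

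Same-numbered libraries deviated from their group means with r = -0.00481 across genes, so no shared shift was seen between them. This value cannot tell whether the animals were paired. With the replicate block the counts over all genes were 310 higher and 476 lower, and the counts were 1 for further mitosis genes, 2 for G1 regulators and 0 for crypt stem cell genes. Under quantile normalization Pcna turned to 0.018, and under FPKM of each library alone Pcna turned to 0.10 and Cdc6 to 0.037; there the median of all genes was 0.17, against 0.02. With 1 library left out, 25 members changed sign in at least 1 case, with log2 differences of -0.27 to 0.11 for Pcna, -0.20 to 0.64 for Mcm2, -0.22 to 1.10 for Mcm3, -0.20 to 0.47 for Mcm4, -0.39 to 0.94 for Mcm5, -0.22 to 0.64 for Mcm6, -0.46 to 0.63 for Mcm7, -0.26 to 0.54 for Ccne1, -0.068 to 0.81 for Rrm1, -0.49 to 0.33 for E2f1, -0.40 to 0.30 for Cdc6, -0.35 to 0.75 for Cdc45, -0.15 to 0.59 for Top2a, -0.066 to 0.97 for Ccnb1, -0.026 to 1.12 for Cdk1, -0.31 to 0.79 for Aurka, -0.21 to 0.80 for Aurkb, -0.14 to 0.54 for Bub1, -0.061 to 0.95 for Birc5, -0.27 to 0.62 for Foxm1, -0.15 to 0.52 for Kif11, -0.065 to 0.76 for Tpx2, -0.13 to 0.85 for Ube2c, -0.40 to 0.0096 for Ccnd1 and -0.083 to 0.59 for Myc; the lone library of a group is then assumed to vary like the others.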
